A study of Mus musculus with 4 samples.

Results

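Natural killer (NK) cells were studied in mouse lung grafts collected 2 h after transplantation between mice of the same B6 strain. NK cells are innate lymphocytes that carry no rearranged antigen receptor. They kill target cells with perforin and granzymes and secrete chemokines and interferon gamma. In mice their activity is set by the balance of activating receptors and of inhibitory receptors for MHC class I, many of them in the Ly49 (Klra) and NKG2 (Klrc) families. NK cells mature through stages marked by loss of CD27 and gain of CD11b, the product of Itgam, and the lung holds many of the mature kind.

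An NK cell was a cell with at least 2 unique molecular identifiers (UMIs, the count of captured transcript molecules) of Ncr1 and Klrb1c together, 0 UMIs of Cd3e, Cd3d and Cd79a, less than 1% of its UMIs in S100a8 and S100a9, and fewer than 10 UMIs of Ccr2, Ly6c2 and Lyz2 together. Ncr1 encodes the activating receptor NKp46 and Klrb1c encodes NK1.1. The rule found 1623 NK cells among 24291 cells that passed the quality limits. The NK cells were thus chosen by the measured UMIs of these genes, whose levels are a description only.

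Single-cell RNA was measured in 4 libraries, 1 for each group: RvD1 recipient, RvD1 donor, vehicle recipient and vehicle donor. All grafts were left lungs stored for 60 min at 4 °C and then 45 min at 28 °C before they were transplanted. The recipient mouse was given resolvin D1 (RvD1, a lipid mediator of the resolution of inflammation made from docosahexaenoic acid) intravenously just before surgery, at 200 ng in 200 µL of 1% ethanol, or was given vehicle. Recipient and donor name the origin of the CD45+ leukocytes in the graft, and the donor lung itself was not given RvD1 before transplantation as far as the labels say. Each library pooled 2 lungs. The genotype is listed as NA, and the sources used here do not give the ages of the mice, how the 2 origins were told apart, or whether 1 pool of lungs gave both libraries of a treatment. With 1 library per group there was no replicate, so no test between groups was possible. The intervals below are 95% intervals that cover counting error only, not the spread between mice.

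NK cells numbered 425 in the RvD1 recipient library, 355 in the RvD1 donor library, 271 in the vehicle recipient library and 572 in the vehicle donor library. Their median UMI count per cell was 4641, 5635, 5993 and 6697.5 in the same order, so the NK cells of the RvD1 libraries were measured less deeply than those of the vehicle libraries. Levels are given as CPM, the UMIs of a gene summed over the NK cells of a library, per 1000000 of all their UMIs. Between 1793203 and 4161106 UMIs stood behind each library's NK level. The libraries shared 60 cell barcodes, and no barcode was an NK cell in more than 1 library. The doublet caller marked 5 NK cells of the RvD1 recipient library, 0 of the RvD1 donor library, 1 of the vehicle recipient library and 6 of the vehicle donor library, and these were kept.

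The cells carried the genes that define NK cells, and they also held RNA of markers of other leukocytes, whose sums are given below. Gzma, which encodes granzyme A, had 7608 CPM in the RvD1 recipient, 7738 CPM in the RvD1 donor, 8441 CPM in the vehicle recipient and 5951 CPM in the vehicle donor NK cells, against 64.1 to 492 CPM in the T cells of the same libraries. T cells here are cells with at least 2 UMIs of Cd3e, Cd3d and Cd3g together. Gzma was above T cells in each of the 4 libraries, and at 2000 UMIs per cell 94.6% to 98.5% of NK cells held a Gzma UMI, against at most 1.46% of B cells. Before this thinning to equal depth the share was 95.8% to 99.3% of NK cells. Prf1, which encodes perforin, lay between 673 and 782 CPM in NK cells and between 16.8 and 32.8 CPM in T cells. Eomes is a transcription factor that NK cells have and ILC1, the other innate lymphoid cells of group 1, largely lack. Its level lay between 217 and 247 CPM in NK cells and between 6.36 and 23.6 CPM in T cells. Genes of ILC1 were low: Cxcr6 had 1.88 CPM in the RvD1 recipient, 11.7 CPM in the RvD1 donor, 2.79 CPM in the vehicle recipient and 12.3 CPM in the vehicle donor NK cells. Itga1 stayed between 9.87 and 15.1 CPM. Cxcr6 was higher in the donor NK cells of both treatments.

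**Figure D1:**
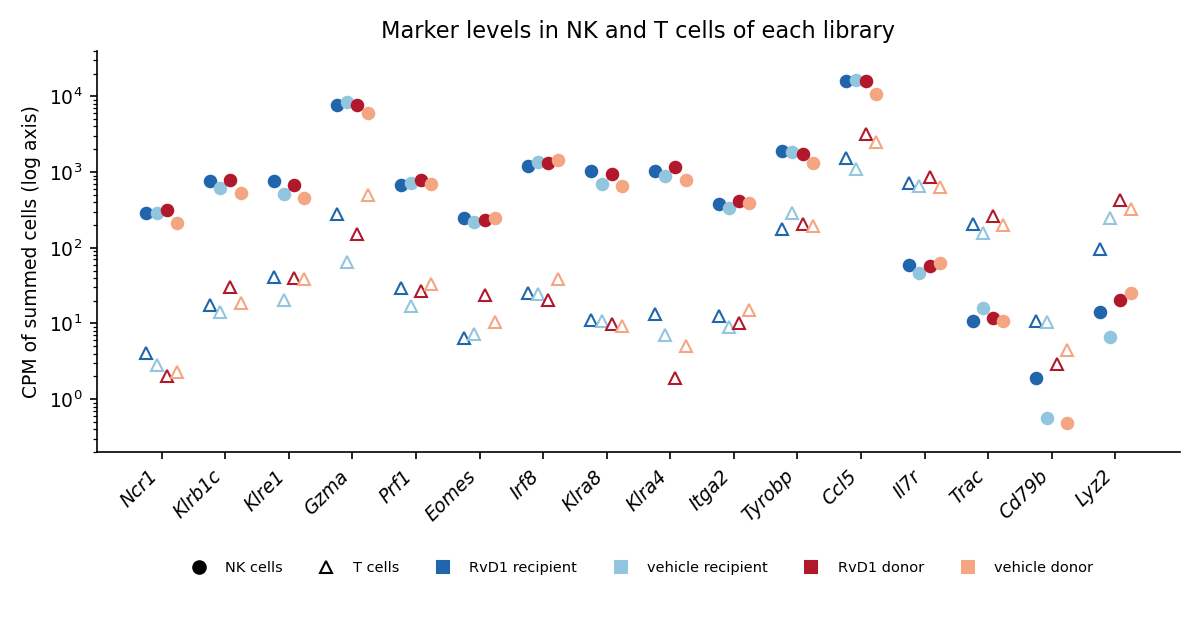
Level of 16 marker genes in NK cells (filled circles) and T cells (open triangles) of each library, in CPM of the summed cells on a log axis; colours name the 4 libraries, and a level of 0 (Cd79b in RvD1 donor NK cells) is not drawn. NK genes sit above the T cells in each library, for example Gzma at 5951 to 8441 CPM in NK cells and 64.1 to 492 CPM in T cells, and Il7r, Trac, Cd79b and Lyz2 sit below them.

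Cells just outside the threshold held less granzyme A and perforin RNA than those just inside it in each of the 4 libraries. Cells with 1 UMI of Ncr1 or Klrb1c that met the other limits numbered 55 in the RvD1 recipient, 38 in the RvD1 donor, 28 in the vehicle recipient and 116 in the vehicle donor library, with 4651, 4301, 6176 and 3867 CPM of Gzma. Cells with 2 UMIs, just inside, numbered 69, 47, 37 and 104 in the same order, with 6025, 6030, 7276 and 4693 CPM of Gzma. Prf1 had 510, 604, 448 and 489 CPM in the cells with 1 UMI and 541, 682, 593 and 610 CPM in those with 2. Eomes did not keep this order, with 319, 157, 156 and 275 CPM in the cells with 1 UMI and 283, 247, 242 and 280 CPM in those with 2. It was thus higher outside the threshold in the RvD1 recipient library. These levels come from few cells and are given without intervals. The cells with 1 UMI were most numerous in the vehicle donor library, and their Gzma level was above the 64.1 to 492 CPM of T cells. Conversely, 10 of the NK cells held at least 2 UMIs of Cd3g, and 212 T cells held at least 2 UMIs of the NK genes.

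Markers of other cells were summed over the genes that the rule did not use. The 9 neutrophil markers added up to 95.9 CPM in the RvD1 recipient, 18.3 CPM in the RvD1 donor, 49.1 CPM in the vehicle recipient and 56.2 CPM in the vehicle donor NK cells, with 1, 1, 1 and 0 of them at 0. The 10 monocyte and macrophage markers added up to 19.3, 24.4, 22.9 and 52.1 CPM in that order, with 7, 3, 7 and 2 of them at 0. The 9 dendritic cell markers added up to 11.3, 30.9, 15.6 and 150 CPM, with 5, 4, 3 and 2 at 0, and H2-Aa, an MHC class II gene, held 44.5 CPM of the vehicle donor sum. The 8 B cell markers stayed between 16.7 and 43.2 CPM, with 0 to 3 at 0. The 12 T cell markers added up to 738 to 851 CPM against 2277 to 2679 CPM in T cells, with 2 to 4 at 0, and a large part of the NK sum was Lef1, at 250 to 340 CPM, a transcription factor gene on the list of NK transcription factors too. The 8 markers of group 2 innate lymphoid cells added up to 232, 196, 241 and 324 CPM, with 2, 2, 3 and 0 at 0, against 136, 877, 122 and 831 CPM in the T cells of the same libraries. In the 2 recipient libraries the NK cells thus held more of this RNA than the T cells. Endothelial markers stayed between 55.2 and 62.7 CPM, epithelial and stromal markers between 1.12 and 10.8 CPM, mast cell and basophil markers between 0.558 and 6.58 CPM, platelet markers between 0 and 1.92 CPM, and erythroid markers between 0 and 4.69 CPM. The vehicle donor NK cells thus carried the most dendritic and monocyte marker RNA and the RvD1 recipient NK cells the most neutrophil marker RNA. The part these play in the comparisons below was not tested.

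NK cells made up a larger share of the donor leukocytes than of the recipient leukocytes under both treatments. They were 5.58% of the cells in the RvD1 recipient library (exact Clopper-Pearson interval 5.07% to 6.11%) and 6.97% in the RvD1 donor library (6.29% to 7.71%). They were 4.58% of the cells in the vehicle recipient library (4.06% to 5.14%) and 10.1% in the vehicle donor library (9.34% to 10.9%). Recipient minus donor was -1.40 percentage points with RvD1 (Newcombe interval -2.28 to -0.54) and -5.53 points with vehicle (-6.49 to -4.59).

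The RvD1 share and the vehicle share differed in opposite directions in the 2 origins. In recipient cells RvD1 minus vehicle was 0.996 points (0.248 to 1.73), and in donor cells it was -3.14 points (-4.19 to -2.08). The recipient difference depended on what NK cells were counted against. Of NK plus T cells, NK cells were 17.7% in the RvD1 recipient, 23.5% in the vehicle recipient, 29.3% in the RvD1 donor and 35.3% in the vehicle donor library. On that base the RvD1 share was lower than the vehicle share in both origins, with differences of -5.84 points (-8.77 to -3.005) in recipient and -6.02 points (-9.45 to -2.54) in donor cells. T cells were 26.0% of RvD1 recipient cells and 14.9% of vehicle recipient cells. When every cell was thinned to 2000 UMIs before the rule was applied, the shares were 3.602% (RvD1 recipient), 2.76% (vehicle recipient), 4.47% (RvD1 donor) and 5.20% (vehicle donor), and the donor difference shrank to -0.73 points with an interval of -1.55 to 0.10 that includes 0.

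**Figure D2:**
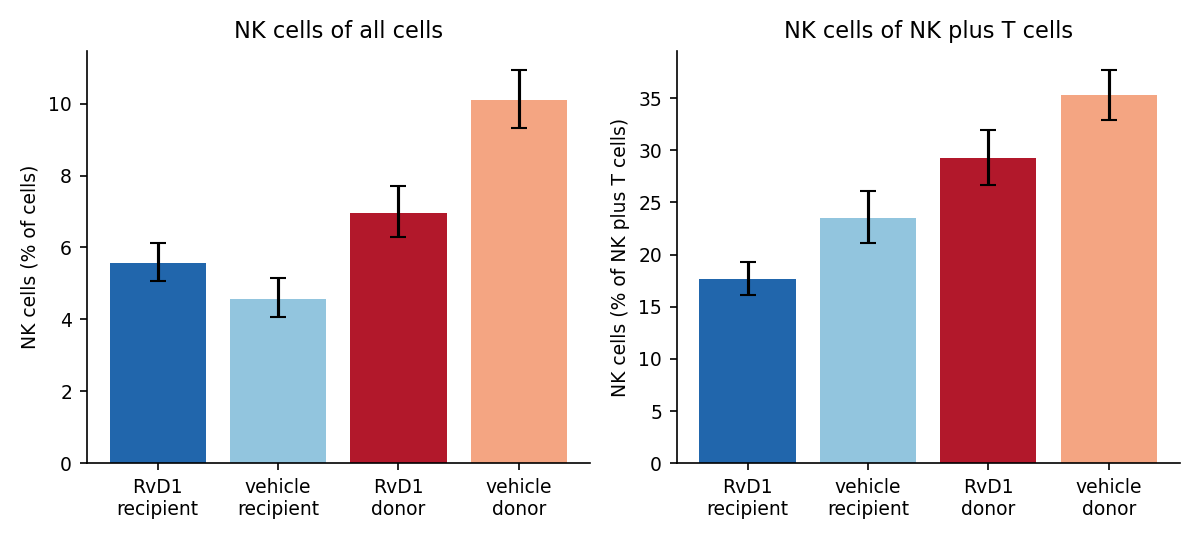
Share of NK cells in each library, as a percentage of all cells (left) and of NK plus T cells (right); bars are the shares of 1 library each and error bars are exact 95% binomial intervals, counting error only. The vehicle donor bar is the tallest in both panels, at 10.1% and 35.3%, and the order of the 2 recipient bars differs between the panels.

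Set against T cells, NK cells were higher in killing genes, in receptors for MHC class I and in the receptors for interleukins 12, 15 and 18. A gene was called when its CPM was at least 2-fold apart in the same direction in all 4 libraries, among 7557 genes with at least 100 UMIs. By this measure 364 genes were higher in NK cells (4.82%) and 342 were lower (4.53%), and the median log2 ratio over all 7557 genes lay between 0.16 and 0.33. The balance of the directions depended on the scaling, with 260 higher and 441 lower after centring on the median gene and 260 higher and 445 lower with totals that leave out ribosomal and mitochondrial genes. It went the other way when T cells also had 0 UMIs of Ncr1, Klrb1c and Cd79a and met the other limits of the NK rule. With that stricter T cell definition 417 were higher and 230 lower. When every cell was thinned to 2000 UMIs before the rules were applied, 91 were higher and 67 lower. Fewer UMIs then stood behind the same minimum of 100 UMIs, and the number of genes measured there is not given. The Cd3 and NK receptor genes that chose the 2 kinds of cell are left out of the counts of the lists.

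Of 14 NK identity genes measured, 13 were higher in NK cells and 0 were lower, with median log2 ratios of 3.65 (RvD1 recipient), 3.20 (RvD1 donor), 3.80 (vehicle recipient) and 2.81 (vehicle donor). The exception was Txk, a Tec family kinase gene, at 495 to 562 CPM in NK cells and 222 to 482 CPM in T cells. Among them were Tyrobp, which encodes the signalling adaptor DAP12, at 1317 to 1875 CPM in NK cells against 176 to 285 CPM in T cells, and Nkg7, a granule membrane protein gene, at 1586 to 2126 CPM against 138 to 326 CPM. Of 16 granule and death ligand genes, 9 were higher and 0 were lower. They included Gzmb (granzyme B) at 733 to 1015 CPM in NK cells against 31.8 to 145 CPM in T cells, and Fasl, the Fas ligand gene, at 267 to 287 CPM against 22.1 to 82.2 CPM. Serpinb9, which encodes a granzyme B inhibitor that protects killer cells, had 696 to 778 CPM in NK cells against 45.0 to 149 CPM in T cells. The secretion genes of the same list did not differ by this measure: Rab27a lay at 57.4 to 80.7 CPM in NK cells and 49.6 to 75.5 CPM in T cells.

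The Ly49 receptors, which B6 NK cells express in varied combinations, were each seen in only some of the cells. Of 7 measured Ly49 genes, 6 were higher in NK cells and 1 was lower, with median log2 ratios of 4.77 to 5.99. The lower one was Klra2, at 0.469 to 3.76 CPM in NK cells and 8.48 to 23.7 CPM in T cells. Klra8, which encodes the activating receptor Ly49H in B6 mice, had 1039 CPM in the RvD1 recipient, 955 CPM in the RvD1 donor, 693 CPM in the vehicle recipient and 662 CPM in the vehicle donor NK cells. Klra4, which encodes the activating receptor Ly49D, had 1027, 1159, 891 and 786 CPM in the same order. T cells had 9.25 to 11.1 CPM of Klra8 and 1.91 to 13.2 CPM of Klra4, and both genes were higher with RvD1 than with vehicle within each origin. The Ly49 genes are near-identical copies in 1 cluster on chromosome 6, and the reads of 1 may have been counted for another, so the values of single members are uncertain.

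At 2000 UMIs per cell, Klra4 was seen in 53.9% of RvD1 recipient, 55.0% of RvD1 donor, 51.5% of vehicle recipient and 49.3% of vehicle donor NK cells, and at full depth in 55.8%, 58.9%, 55.4% and 54.4%. Klra4 UMIs were seen in at most 0.81% of B cells at the thinned depth. The Klra4 share moved little with depth, whereas that of Klre1, a gene of an NKG2-like receptor, was 55.9% to 77.1% at 2000 UMIs and 86.5% to 93.9% at full depth. Klra8 was seen in 58.2%, 59.3%, 48.9% and 51.7% of NK cells, and Klra9 in 38.9%, 42.7%, 46.3% and 41.6%, in the same order of libraries at the thinned depth. Of 6 Ly49 genes counted per cell, none was seen in 10.1% of RvD1 recipient, 8.26% of RvD1 donor, 11.9% of vehicle recipient and 12.2% of vehicle donor NK cells. At least 4 were seen in 12.1%, 11.97%, 11.9% and 5.59%.

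In the NKG2 family, which pairs with CD94, 4 of 4 measured members were higher in NK cells. Klrk1, which encodes the activating receptor NKG2D, had 529 to 737 CPM in NK cells against 43.3 to 156 CPM in T cells, and Klrd1, which encodes CD94, had 422 to 617 CPM against 124 to 160 CPM. Of 15 activating receptor and adaptor genes 6 were higher and 2 were lower, the lower ones being Slamf6 and Lat, the adaptor of T cell receptor signalling. Inhibitory receptors were mixed, with 2 of 6 higher and 3 lower. Klrb1b, which encodes an inhibitory NKR-P1 receptor, had 385 to 480 CPM in NK cells against 3.21 to 21.2 CPM in T cells, and Ctla4 had 2.79 to 14.1 CPM against 88.0 to 166 CPM.

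Among 15 cytokine receptor genes 5 were higher in NK cells and 4 were lower. Il12rb2, a chain of the interleukin 12 receptor, had 746 to 906 CPM in NK cells against 75.9 to 196 CPM in T cells. Il18rap, a chain of the interleukin 18 receptor, had 562 to 683 CPM against 56.8 to 131 CPM, and Il2rb, the chain that binds interleukins 2 and 15, had 938 to 1468 CPM against 125 to 359 CPM. Il7r, the interleukin 7 receptor gene, had 46.8 to 63.4 CPM in NK cells and 641 to 862 CPM in T cells. The interferon gamma receptor chains were split: Ifngr1 had 1904 to 2170 CPM in NK cells against 660.2 to 1004 CPM in T cells, whereas Ifngr2, the signalling chain, had 0.938 to 6.01 CPM against 101 to 138 CPM. Of 7 cytokine and chemokine genes 3 were higher, namely Ccl4, Ccl5 and Xcl1, and Ltb was lower. Ccl5, the gene of the chemokine RANTES, had 10644 to 16375 CPM in NK cells and 1086 to 3199 CPM in T cells.

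Trafficking genes separated the 2 kinds of cell as well, with 7 of 20 higher in NK cells and 4 lower. S1pr5, the sphingosine phosphate receptor by which NK cells leave bone marrow and lymph nodes, had 42.9 to 51.4 CPM in NK cells against 0.909 to 6.45 CPM in T cells, while S1pr1 had 41.3 to 71.0 CPM against 210 to 440 CPM. Itga2, which encodes CD49b, had 340 to 411 CPM in NK cells against 8.97 to 15.3 CPM in T cells. Of 19 transcription factor genes 5 were higher, namely Eomes, Tbx21, Zeb2, Id2 and Irf8, and Tcf7 was lower. Irf8 had 1204 CPM in the RvD1 recipient, 1330 CPM in the RvD1 donor, 1353 CPM in the vehicle recipient and 1421 CPM in the vehicle donor NK cells, against 20.6 to 39.2 CPM in T cells. The 10 genes furthest above T cells by the smallest ratio of the 4 libraries were Serpinb9b, Cma1, Klra4, Klra8, Phactr3, Eya1, D5Ertd615e, Klri2, Angpt1 and Irf8. Cma1, a chymase gene best known from mast cells, had 187 to 307 CPM in NK cells and 0.454 to 2.71 CPM in T cells, and Angpt1, the angiopoietin 1 gene, had 225 to 331 CPM and 2.42 to 8.91 CPM. At the other end were Fam169b, Themis, Cd8b1, Iigp1, Tnfsf8, St6gal1, Ly6a, Inpp4b, Dpp4 and Cpm. Ly6a, which encodes the surface protein Sca-1, had 1.12 to 4.22 CPM in NK cells against 137 to 192 CPM in T cells.

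Within NK cells, the transcripts of the CD27 and CD11b stages were set against each other in cells thinned to 2000 UMIs. An Itgam UMI without a Cd27 UMI was found in 13.8% of RvD1 recipient NK cells (exact interval 10.6% to 17.5%), 22.5% of RvD1 donor NK cells (18.2% to 27.2%), 25.9% of vehicle recipient NK cells (20.8% to 31.6%) and 21.9% of vehicle donor NK cells (18.5% to 25.5%). A Cd27 UMI without an Itgam UMI was found in 14.3%, 9.69%, 9.26% and 10.7% in the same order. Neither was seen in 63.3% to 69.8% of the cells, so these classes are those in which a transcript was captured, not all cells of a stage. The RvD1 recipient library had the smallest Itgam-only share and the greatest Cd27-only share. At full depth Itgam was seen in 31.5% of RvD1 recipient, 47.0% of RvD1 donor, 55.0% of vehicle recipient and 50.5% of vehicle donor NK cells, and Cd27 in 27.3%, 26.5%, 22.5% and 31.5% in the same order. In B cells of the same libraries Itgam was seen in 0.365% to 0.81% and Cd27 in 0.853% to 3.19% at the thinned depth.

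Itgam-only NK cells were higher than Cd27-only NK cells in most measured genes of the mature NK list, and lower in those of the immature NK list. Of 4984 genes measured, 191 were at least 1.5-fold higher over all libraries and higher in each of the 4 (3.83%), and 95 were lower in the same way (1.91%), with a median log2 ratio of 0.06 over all of them. Of 9 measured mature NK genes 7 were higher and 0 lower, with a median of 1.66. Of 6 measured immature NK genes 0 were higher and 6 lower, with a median of -1.63. Klrg1, an inhibitory receptor gene of late NK cells, had a log2 ratio of 2.46 over all libraries (1.92 to 3.04) and of 2.00 in the RvD1 recipient, 2.57 in the RvD1 donor, 1.57 in the vehicle recipient and 4.27 in the vehicle donor cells. Cx3cr1, the fractalkine receptor gene, had a ratio of 2.19 (1.35 to 3.14), Zeb2, a transcription factor of terminal NK maturation, 1.70 and S1pr5 1.66 (1.01 to 2.36). Granule and death ligand genes were split, with 4 of 15 measured members higher, 0 lower and a median of 0.21. The 4 were Gzmb at a log2 ratio of 1.29 (1.14 to 1.43), Stx11, which encodes syntaxin 11, at 1.09, Prf1 at 1.03 (0.88 to 1.17) and Gzma at 0.94 (0.90 to 0.99). The other members lay between -0.16 (Serpinb6b) and 0.53 (Nkg7), among them Lamp1 at -0.01, Srgn at 0.05 and Rab27a at 0.09. Outside that list Lyst, the gene of a regulator of lysosomal trafficking, was lower in each of the 4 libraries, at -1.03. Of 5 measured cytokine and chemokine genes, Ifng (1.27) and Ccl5 (0.66) were higher, Xcl1 was lower, and Ccl4 had -0.08. Prf1 had 776 CPM in Itgam-only and 424 CPM in Cd27-only cells of the RvD1 recipient library, and 822 CPM and 385 CPM in the vehicle recipient library. In the donor libraries Prf1 had 868 CPM and 391 CPM with RvD1, and 840 CPM and 419 CPM with vehicle. All 4 libraries showed Prf1 higher in Itgam-only cells. Itgam is a gene of myeloid cells as well, and markers of such cells moved with these classes: the 3 measured neutrophil markers had a median of 0.69, with 1 higher, and the 3 measured dendritic cell markers had a median of 2.65, with 0 passing the fold and higher in each of the 4 libraries. Of 2 measured genes of ILC1 and tissue residency, 2 were lower in Itgam-only cells, with a median of -1.39. Of 4 measured T cell markers 2 were lower and 0 higher, with a median of -0.68. The part of these genes of other cells in the ratios was not tested.

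Genes of early NK cells lay on the other side, as did the innate lymphoid and T cell genes just given. Il7r had a log2 ratio of -2.18 (-2.64 to -1.73), Emb, which encodes the membrane protein embigin, of -2.09 (-2.23 to -1.95), Tcf7, which encodes the transcription factor TCF1, of -1.83 (-2.36 to -1.31), and Kit, the stem cell factor receptor gene, of -1.44 (-1.86 to -1.02). Xcl1, the gene of a chemokine that attracts cross-presenting dendritic cells, was on this side too, with -1.43 (-1.80 to -1.06), unlike Ccl5 with 0.66 (0.63 to 0.69). Each of these 5 early genes was lower in Itgam-only cells in 4 of 4 libraries. Eomes and Klrk1 did not separate the classes, with ratios of -0.09 (-0.30 to 0.12) and 0.02 (-0.11 to 0.15).

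**Figure D3:**
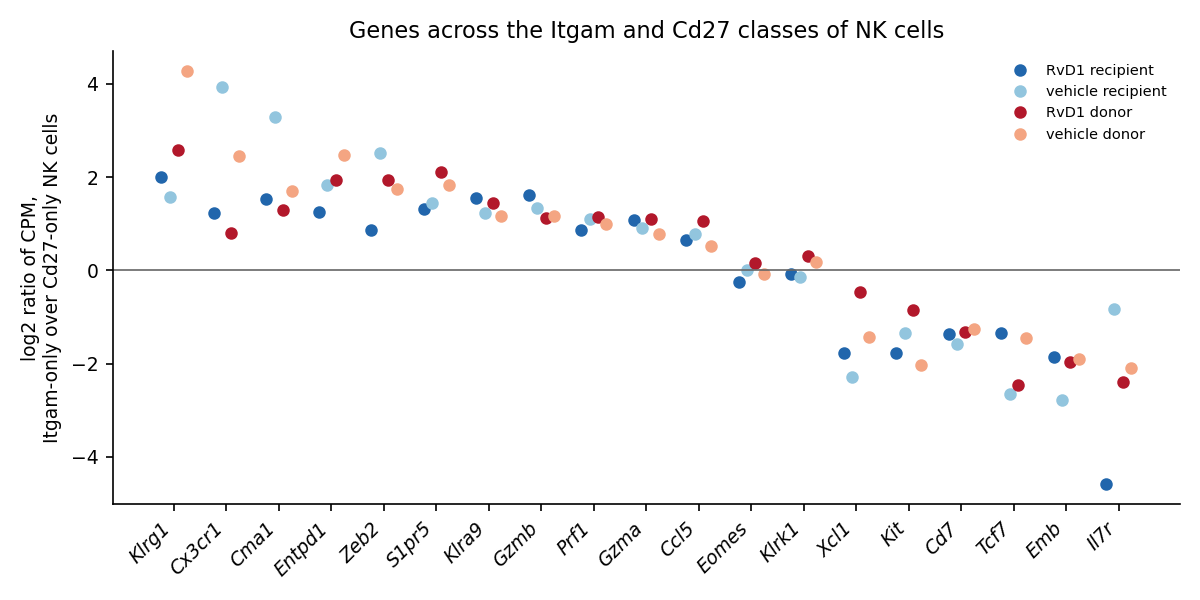
Log2 ratio of CPM in Itgam-only over Cd27-only NK cells for 19 genes, 1 point per library, with a line at 0. Klrg1 to Ccl5 lie above 0 in each library, Eomes and Klrk1 lie around 0, and Xcl1 to Il7r lie below 0 in each library.

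Among the genes with enough UMIs to be measured, recipient NK cells and donor NK cells were close to each other. Of 5596 genes with at least 100 NK UMIs over the 2 libraries of each contrast, 0 were higher by 2-fold or more in recipient than in donor NK cells under both treatments and 0 were lower (0.0% in either direction). At 1.5-fold, 5 were higher (0.0893%) and 7 were lower (0.125%). The median log2 ratio over these genes was -0.02 with RvD1 and -0.06 with vehicle. The higher genes were Hist1h2ap, Hist1h1d, Aspscr1, Ppa2 and 2300009A05Rik, and the lower genes were Acyp2, Mcam, Coro2a, Chn2, Ctse, Naip5 and Gm28836. Ctse, the cathepsin E gene, had 43.7 CPM in recipient and 66.6 CPM in donor NK cells with RvD1, and 52.4 CPM and 88.9 CPM with vehicle. Mcam, which encodes the adhesion molecule CD146, had 23.5 CPM in recipient and 36.1 CPM in donor NK cells with RvD1, and 29.6 CPM and 48.1 CPM with vehicle. Both were lower in the recipient cells under both treatments. Among these 12 genes, Aspscr1, Acyp2 and Chn2 changed direction in 1 treatment when cells were thinned to 2000 UMIs, and Hist1h2ap did so without the cycling NK cells. Sparser genes were not counted, among them Cxcr6, which was higher in the donor NK cells of both treatments. Of 11 genes of ILC1 and tissue residency, 2 had enough UMIs to be counted.

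More genes passed these folds between recipient and donor among T cells of the same libraries, and markers of other cell types moved with that comparison. On the 5529 genes measured in both kinds of cell, 4 genes were at least 2-fold higher in recipient than in donor T cells (0.0723%) and 160 were lower (2.89%), whereas 0 were higher and 0 lower among NK cells. At 1.5-fold, T cells had 28 higher (0.506%) and 463 lower (8.37%), and NK cells had 5 higher (0.0904%) and 4 lower (0.0723%). Of all 9450 genes measured in T cells 1.9% were higher and 9.76% lower at 1.5-fold. The interferon-stimulated genes had 14 of 31 measured members higher in recipient T cells, with median log2 ratios of 0.90 (RvD1) and 0.60 (vehicle). Other lists had lower members in recipient T cells: 6 of 10 inhibitory receptor genes, 6 of 10 genes of ILC1 and tissue residency and 9 of 23 immediate early genes. Also lower were 7 of 19 antioxidant genes and 8 of 21 trafficking genes, of which 2 more were higher. In NK cells 0 of 12 measured interferon-stimulated genes were higher and 0 lower, with medians of 0.14 and 0.05.

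Among the markers of other cells, 9 of 9 measured neutrophil markers and 4 of 5 B cell markers were higher in recipient than in donor T cells, and 6 of 6 markers of group 2 innate lymphoid cells, 3 of 4 dendritic cell markers and 4 of 7 monocyte and macrophage markers were lower. The summed neutrophil markers had 491 CPM in recipient and 263 CPM in donor T cells with RvD1, and 1157 CPM and 375 CPM with vehicle, with 0 of 9 at 0 in each library. The summed markers of group 2 innate lymphoid cells had 136 CPM in recipient and 877 CPM in donor T cells with RvD1, and 122 CPM and 831 CPM with vehicle. The recipient and donor T cells thus differed in the RNA of these marker genes. The source of this RNA, other cells or the T cells themselves, was not tested, nor was its part in the T cell counts. Whether NK and T cells differ in the number of genes apart was not tested either, since each group is 1 library.

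**Figure D4:**
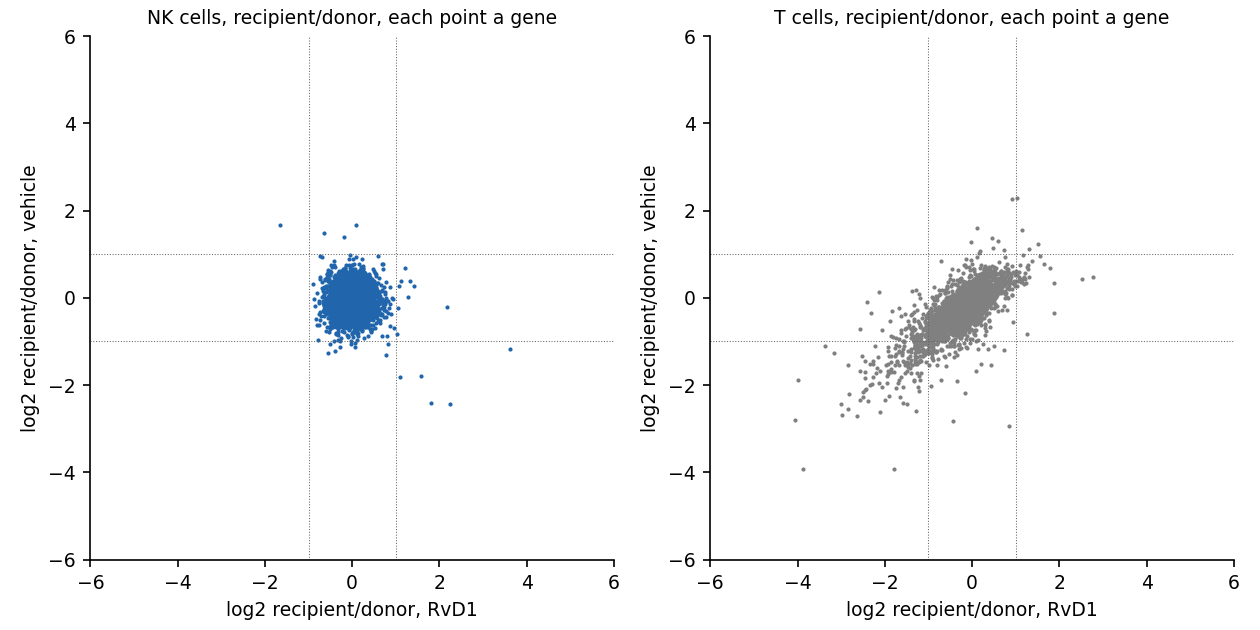
Log2 ratio of recipient over donor CPM for the 5529 genes measured in both kinds of cell, in NK cells (left) and T cells (right), with RvD1 on the x axis and vehicle on the y axis; dotted lines mark 2-fold. No NK gene lies beyond 2-fold in the same direction under both treatments, against 4 higher and 160 lower genes of T cells.

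No list of NK function genes had a called member. Of 16 identity genes measured, 16 granule and death ligand genes, 6 Ly49 genes, 4 NKG2 genes, 17 trafficking genes and 19 transcription factor genes, 0 were higher and 0 lower in recipient NK cells at 1.5-fold under both treatments. With 0.0893% higher and 0.125% lower among all 5596 genes, counts of 0 in lists of this size are near the background. Their median log2 ratios lay between -0.16 and 0.35. The sole list with a called member was that of the linker histones, with 1 of 4, Hist1h1d, which had 152 CPM in recipient and 92.4 CPM in donor NK cells with RvD1 and 50.2 CPM and 31.7 CPM with vehicle.

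Klrg1, Cx3cr1 and Cma1, all of the mature NK list, differed between recipient and donor NK cells in opposite directions under the 2 treatments beyond counting error. They were singled out after their values had been seen. The 10 measured genes of the list had a median log2 recipient/donor ratio of -0.16 with RvD1 and 0.44 with vehicle, and 0 of them were called under both treatments. Klrg1 had 84.6 CPM in recipient and 113 CPM in donor NK cells with RvD1, a log2 ratio of -0.42 (-0.71 to -0.14). With vehicle Klrg1 had 134 CPM in recipient and 74.0 CPM in donor NK cells, a ratio of 0.85 (0.60 to 1.10). Cx3cr1 had 24.9 CPM and 41.3 CPM with RvD1, a ratio of -0.73 (-1.25 to -0.22), and 54.1 CPM and 27.9 CPM with vehicle, a ratio of 0.96 (0.55 to 1.36). Cma1 had ratios of -0.25 (-0.44 to -0.05) with RvD1 and 0.52 (0.36 to 0.67) with vehicle. Other members did not show this, for example S1pr5 at 0.03 (-0.39 to 0.46) and -0.26 (-0.66 to 0.12), and Prdm1 at 0.33 (-0.14 to 0.81) and 0.12 (-0.36 to 0.58). Itgam had 94.9 CPM in recipient and 151 CPM in donor NK cells with RvD1, and 154 CPM and 150 CPM with vehicle. For Itgam, and for Zeb2 at 298 CPM against 444, 496 and 516 CPM, 1 library was low, that of the RvD1 recipient cells. Cd27 had 111 CPM in the RvD1 recipient library, 80.7 CPM in the RvD1 donor, 80.9 CPM in the vehicle recipient and 96.4 CPM in the vehicle donor library. These levels and the Itgam-only and Cd27-only shares given above come from the same cells and are not separate evidence, and the difference between the treatments was not tested.

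The comparison of RvD1 with vehicle was made within each origin, once in recipient and once in donor NK cells, on libraries that the 2 contrasts do not share. Cell Ranger 7.0.1 had made the counts of the RvD1 libraries and Cell Ranger 6.1.1 those of the vehicle libraries, per the file headers, so the version of the software and the treatment are confounded and cannot be told apart. Across 5393 genes the log2 ratio was lower for genes with longer introns in total, with Spearman correlation coefficients of -0.33 in recipient and -0.47 in donor NK cells, given as a description across genes that share libraries. The coefficient with intron length was also negative between recipient and donor NK cells, at -0.19 with RvD1 and -0.42 with vehicle, within 1 version each. Ribosomal protein genes took 18.6% of NK UMIs in the RvD1 recipient, 18.3% in the RvD1 donor, 16.7% in the vehicle recipient and 13.6% in the vehicle donor library.

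NK cells of the RvD1 libraries were higher in linker and core histone genes and in the chemokine gene Ccl3, and lower in a small set of regulators that included Pde5a and Hexim1. Of the 5393 genes, 7 were higher by 2-fold or more in both origins (0.13%) and 5 were lower (0.0927%). At 1.5-fold, 38 were higher (0.705%) and 77 were lower (1.43%). The median log2 ratio over all these genes was -0.07 in recipient and -0.11 in donor NK cells. The 7 higher genes were Hist1h1c, Hist1h1d, Hist1h1e, Hist1h2bc, Ccl3, Rps27rt and Gm2000, the last 2 being a ribosomal protein-like gene and a predicted gene. The 5 lower genes were Pde5a, Rtn4rl1, Hexim1, Mt1 and Ski. In NK cells thinned to 2000 UMIs 4 genes were higher and 1 was lower at 2-fold, and without the cycling NK cells 11 were higher.

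Linker histones bind the DNA between nucleosomes and compact chromatin. The Hist1h1 genes of linker histones lack introns and lie with core histone genes in a cluster on mouse chromosome 13. The 150 bases before the start of the 3 linker histone genes higher with RvD1 are shown because the 3 moved together; they are RefSeq sequences of the build GRCm38.p6, 5′ to 3′ on the gene's strand. Capitals mark 3 letter strings that were searched on both strands. The first string is AAACACA, the core of the H1 box known from linker histone promoters. The second string is CCAAT, the CCAAT box. The third string is TATATA, a form of the TATA box. The windows are chr13:23738657-23738806 on the plus strand for Hist1h1c (H1f2), chr13:23554882-23555031 on the plus strand for Hist1h1d (H1f3) and chr13:23622559-23622708 on the minus strand for Hist1h1e (H1f4).
Hist1h1c: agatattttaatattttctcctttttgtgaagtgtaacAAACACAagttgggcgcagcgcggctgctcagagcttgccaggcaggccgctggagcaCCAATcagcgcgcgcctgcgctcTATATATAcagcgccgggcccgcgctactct
Hist1h1d: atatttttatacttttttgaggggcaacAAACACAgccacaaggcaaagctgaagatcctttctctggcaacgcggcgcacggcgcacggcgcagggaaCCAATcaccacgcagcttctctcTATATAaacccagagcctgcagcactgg
Hist1h1e: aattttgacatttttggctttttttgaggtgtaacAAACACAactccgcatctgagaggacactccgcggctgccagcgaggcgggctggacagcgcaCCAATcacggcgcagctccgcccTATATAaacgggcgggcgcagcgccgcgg
Each of the 3 windows held all 3 strings in the same order, with first bases, counted back from the gene's start, at -112, -122 and -115 for the H1 box string, at -54, -51 and -52 for the CCAAT box and at -29, -28 and -29 for the TATA box string, in Hist1h1c, Hist1h1d and Hist1h1e. In Hist1h1c the TATA box string also starts at -31, overlapping the other copy. Of 32817 mouse promoters of the same length, 24.5% held the CCAAT box, 2.97% the TATA box string, 3.53% the H1 box string and 0.0518% held all 3. A match describes the letters and not a bound site. The window of Hist1h1b, a measured linker histone gene that did not keep a direction with RvD1, is not shown. Any link between the strings and the RvD1 difference was not tested.

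Hist1h1e had 809 CPM in RvD1 recipient and 372 CPM in vehicle recipient NK cells, and 678 CPM in RvD1 donor and 223 CPM in vehicle donor NK cells. Both RvD1 libraries were above both vehicle libraries, with log2 ratios of 1.12 (0.99 to 1.25) in recipient and 1.60 (1.48 to 1.72) in donor NK cells. At 2000 UMIs per cell a Hist1h1e UMI was seen in 73.2% of RvD1 recipient, 41.1% of vehicle recipient, 66.4% of RvD1 donor and 32.7% of vehicle donor NK cells, and at full depth in 90.8%, 68.3%, 89.9% and 64.5%. Hist1h1c had 190 CPM with RvD1 and 88.7 CPM with vehicle in recipient cells, and 181 CPM with RvD1 and 70.4 CPM with vehicle in donor cells, with ratios of 1.10 (0.83 to 1.37) and 1.36 (1.14 to 1.59). Hist1h1d had 152 CPM with RvD1 and 50.2 CPM with vehicle in recipient cells, and 92.4 CPM with RvD1 and 31.7 CPM with vehicle in donor cells, with ratios of 1.60 (1.26 to 1.95) and 1.54 (1.22 to 1.87). Hist1h2bc, a core histone H2B gene, had 68.1 CPM with RvD1 and 29.6 CPM with vehicle in recipient cells, and 85.8 CPM with RvD1 and 24.03 CPM with vehicle in donor cells. For all 4 genes the lower RvD1 library was above the higher vehicle library. The cell with the most UMIs held 1.73% to 13.6% of a library's UMIs of these 4 genes with RvD1.

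The fourth measured linker histone gene went another way. Hist1h1b, which also encodes a linker histone H1, had 39.5 CPM with RvD1 and 106 CPM with vehicle in recipient NK cells, and 123 CPM with RvD1 and 33.6 CPM with vehicle in donor NK cells. Its log2 ratios were -1.43 (-1.82 to -1.05) and 1.87 (1.57 to 2.18), but 1 cell held 65.02% of the Hist1h1b UMIs of the RvD1 donor NK cells and 1 cell held 45.0% of those of the vehicle recipient NK cells. Among all 67 histone genes with Hist symbols, 15 were measured in NK cells, of which 9 were higher at 1.5-fold in both origins and 0 were lower, against 0.705% higher and 1.43% lower of all genes. Their median log2 ratio was 0.84 in recipient and 1.38 in donor NK cells. The 9 higher genes differed in how far 1 cell carried them. A single cell held 27.8% to 43.4% of a library's Hist1h2ap UMIs and 10.1% to 20.5% of its Hist1h4d UMIs, against 1.71% to 5.03% for Hist1h1c. The histone family was singled out after the values of its linker histones had been seen, so the count is a description.

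Hist1h1e, Hist1h1c and Hist1h1d were also higher with RvD1 in B and T cells of the same libraries. Hist1h1e had 599 CPM in RvD1 recipient and 337 CPM in vehicle recipient B cells, and 422 CPM in RvD1 donor and 187 CPM in vehicle donor B cells. In T cells Hist1h1e had 243 CPM in RvD1 recipient and 99.0 CPM in vehicle recipient cells, and 226 CPM in RvD1 donor and 123 CPM in vehicle donor cells. The T cell log2 ratios were 0.80 in recipient and 0.96 in donor cells for Hist1h1c, and 1.17 and 0.90 for Hist1h1d. Hist1h1b was lower in T cells, at -0.62 and -0.48. Of 6 measured linker histone genes in T cells, 3 were higher at 1.5-fold in both origins and 0 were lower. Over the family, B cells had 15 measured histone genes, of which 8 were higher at 1.5-fold in both origins and 0 were lower, against 0.833% higher and 1.27% lower of all 6001 genes measured in B cells. Their median log2 ratios were 0.83 in recipient and 1.00 in donor B cells. T cells had 29 measured histone genes, of which 6 were higher and 1 was lower, against 0.947% higher and 2.64% lower of all 9294 genes measured in T cells. Their medians were 0.54 in recipient and 0.00 in donor T cells, so the family as a whole was not higher in donor T cells. The 110 intronless genes measured in NK cells had a median log2 ratio of 0.08 in recipient and 0.14 in donor NK cells. The quartile of genes with the longest introns in total had medians of -0.22 and -0.32 in the same order, and all 5393 genes -0.07 and -0.11. The part of intron length or of the software version in the histone ratios was not tested.

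Ccl3, which encodes the chemokine MIP-1 alpha and lies at chr11:83647844-83649355 of GRCm38 on the minus strand, had 52.2 CPM in RvD1 recipient and 11.7 CPM in vehicle recipient NK cells, and 55.8 CPM in RvD1 donor and 21.9 CPM in vehicle donor NK cells. The log2 ratios were 2.16 (1.47 to 2.90) in recipient and 1.35 (0.95 to 1.76) in donor NK cells. A Ccl3 UMI was seen in 6.28% of RvD1 recipient, 2.22% of vehicle recipient, 5.70% of RvD1 donor and 4.02% of vehicle donor NK cells at 2000 UMIs, and in 14.6%, 5.90%, 13.5% and 10.3% at full depth. In B cells Ccl3 UMIs were seen in 0.114% to 1.46% of the thinned cells. A single cell held 18.9% of the UMIs in the RvD1 recipient, 14.3% in the vehicle recipient, 24.4% in the RvD1 donor and 6.59% in the vehicle donor library, so a few cells carried much of this gene. In T cells Ccl3 was lower with RvD1, with log2 ratios of -1.05 in recipient and -1.04 in donor T cells.

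Of the other 5 measured genes of the cytokine list, 0 were higher and 1, Tgfb1, was lower, and the list had medians of 0.69 in recipient and 0.49 in donor NK cells. Ccl4, which encodes the chemokine MIP-1 beta, had 298 CPM with RvD1 and 188 CPM with vehicle in recipient cells, and 270 CPM with RvD1 and 190 CPM with vehicle in donor cells. Its log2 ratios of 0.66 (0.47 to 0.86) and 0.50 (0.35 to 0.66) did not reach 1.5-fold in donor cells. Ifng, the interferon gamma gene, had 36.7 CPM with RvD1 and 22.3 CPM with vehicle in recipient cells, and 40.3 CPM with RvD1 and 29.1 CPM with vehicle in donor cells, with ratios of 0.72 (0.15 to 1.30) and 0.47 (0.06 to 0.88). Tgfb1, which encodes the inhibitory cytokine TGF-beta, had 175 CPM with RvD1 and 283 CPM with vehicle in recipient cells, and 199 CPM with RvD1 and 326 CPM with vehicle in donor cells.

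Among the lower genes, Pde5a, which encodes a phosphodiesterase that breaks down cyclic GMP, had 38.1 CPM in RvD1 recipient and 142 CPM in vehicle recipient NK cells, and 26.7 CPM in RvD1 donor and 93.5 CPM in vehicle donor NK cells. The ratios were -1.90 (-2.28 to -1.54) and -1.81 (-2.23 to -1.40), the furthest from 0 by the rule among the lower genes. Hexim1, an inhibitor of the transcription elongation factor P-TEFb, had 31.5 CPM with RvD1 and 69.2 CPM with vehicle in recipient cells, and 29.5 CPM with RvD1 and 70.7 CPM with vehicle in donor cells. Ski, a repressor of TGF-beta signalling, had 55.9 CPM with RvD1 and 112 CPM with vehicle in recipient cells, and 66.1 CPM with RvD1 and 144 CPM with vehicle in donor cells. Mt1, a metallothionein gene that binds zinc, had 14.1 CPM with RvD1 and 42.9 CPM with vehicle in recipient cells, and 24.4 CPM with RvD1 and 52.1 CPM with vehicle in donor cells, where 1 cell held 37.3% of the vehicle donor UMIs. For these 4 genes the RvD1 libraries lay below the vehicle libraries without overlap. The introns of Pde5a add up to 120597 bases.

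**Figure D5:**
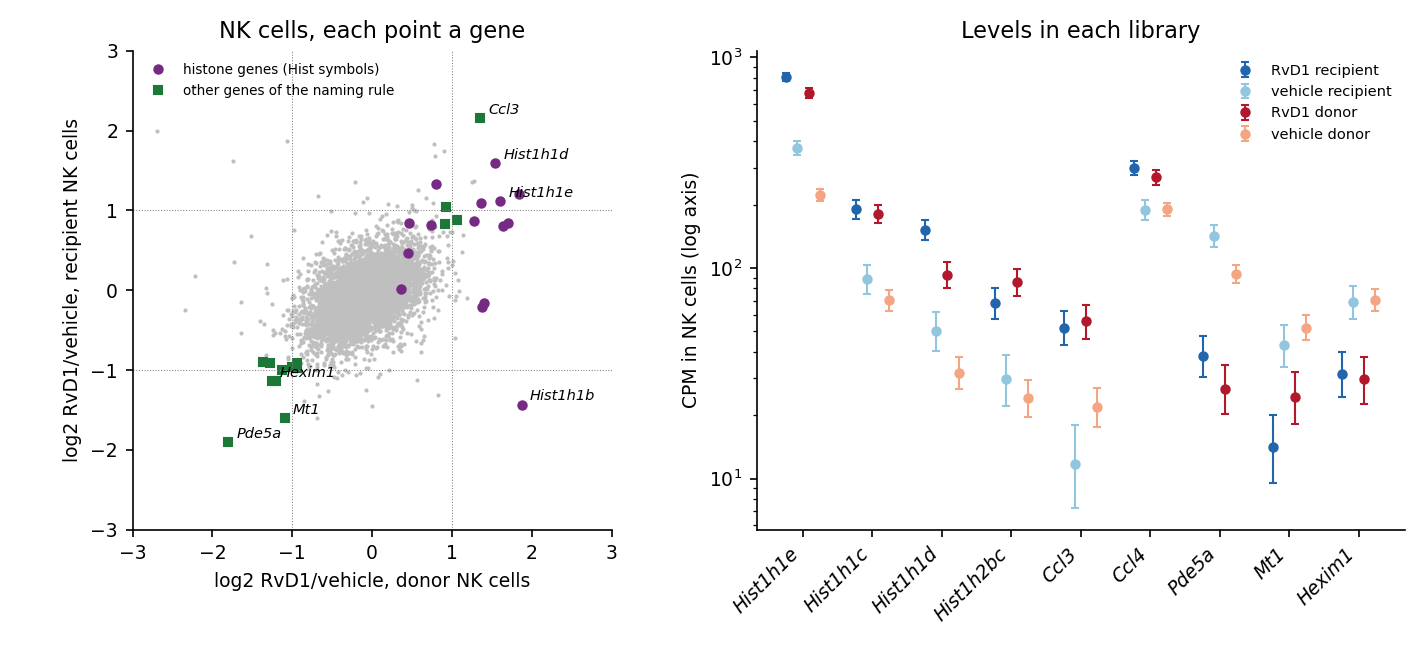
Left, log2 ratio of RvD1 over vehicle CPM in donor (x axis) and recipient (y axis) NK cells for 5393 genes, with dotted lines at 2-fold, histone genes in purple and the other genes of the naming rule in green. Right, CPM on a log axis of 9 genes in each library, with exact 95% Poisson intervals; both RvD1 libraries lie above both vehicle libraries for the first 6 genes (Hist1h1e at 678 to 809 against 223 to 372 CPM) and below them for Pde5a, Mt1 and Hexim1.

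Lists of NK function genes had 0 or 1 called member between RvD1 and vehicle at 1.5-fold in both origins, cytokines aside. Of all genes 0.705% were higher and 1.43% lower by this measure, so such counts in lists of 4 to 19 genes are near the background. Of 16 identity genes, 15 granule and death ligand genes, 6 Ly49 genes, 4 NKG2 genes, 17 trafficking genes and 19 transcription factor genes, 0 were higher and 0 lower. The 6 Ly49 genes had median log2 ratios of 0.16 in recipient and 0.54 in donor NK cells. A list that moved in opposite directions in the 2 origins cannot be called by this measure, and the 10 mature NK genes had medians of -0.47 in recipient and 0.20 in donor NK cells. Of 16 activating receptor and adaptor genes 1 was higher, Klrb1a, which encodes a receptor of the NKR-P1 family, at 140 CPM with RvD1 and 86.4 CPM with vehicle in recipient cells, and 139 CPM with RvD1 and 63.2 CPM with vehicle in donor cells. Of 13 cytokine receptor genes 1 was lower, Il21r, the interleukin 21 receptor gene, at 39.9 CPM with RvD1 and 89.8 CPM with vehicle in recipient cells, and 56.7 CPM with RvD1 and 91.6 CPM with vehicle in donor cells. Gzma did not keep a direction, with log2 ratios of -0.15 (-0.18 to -0.12) in recipient and 0.38 (0.35 to 0.41) in donor cells, nor did Prf1, with -0.10 (-0.20 to 0.01) and 0.15 (0.06 to 0.24).

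Heat shock and NF-kB genes had 2 lower members each, against 1.43% of all genes. Of 13 heat shock genes 2 were lower and 0 higher, with list medians of -0.48 in recipient and -0.27 in donor NK cells. The first was Hsp90aa1, an inducible HSP90 chaperone gene, with 204 CPM under RvD1 and 336 CPM under vehicle in recipient cells, and 202 CPM under RvD1 and 328 CPM under vehicle in donor cells. The second was Dnajb1, a cochaperone gene, at 40.9 CPM under RvD1 and 61.3 CPM under vehicle in recipient cells, and 36.6 CPM under RvD1 and 55.5 CPM under vehicle in donor cells. In T cells Hsp90aa1 had ratios of -0.69 in recipient and -0.82 in donor cells. Of 15 NF-kB early response genes 2 were lower, Nfkb2, at log2 ratios of -0.95 (-1.41 to -0.50) and -0.77 (-1.20 to -0.36), and Bcl3, at -0.61 (-1.21 to -0.03) and -0.62 (-1.06 to -0.20). Of 15 antioxidant genes 1 was higher, Txnip, the thioredoxin-interacting protein gene, and 1 was lower, Mt1. Txnip had 175 CPM with RvD1 and 95.4 CPM with vehicle in recipient cells, and 159 CPM with RvD1 and 94.7 CPM with vehicle in donor cells. Of 18 immediate early, 12 interferon-stimulated, 34 oxidative phosphorylation, 16 glycolysis and hypoxia, 8 survival and death and 13 MHC class I genes, 0 were higher and 0 lower, near the 0.705% and 1.43% of all genes. Of 6 cell cycle genes 1 was higher, Hmgb2, a chromatin protein gene, at 945 CPM with RvD1 and 571 CPM with vehicle in recipient cells, and 882 CPM with RvD1 and 450 CPM with vehicle in donor cells.

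Other genes that the naming rule gave, after histone genes and Ccl3, were Cdk8, Clybl and Cirbp among the higher (Clybl changed direction in recipient cells on thinning) and Atxn2, Pknox1, Nfat5, Sfpq and Ext1 among the lower. Cirbp, which encodes a cold-inducible RNA-binding protein, had 178 CPM with RvD1 and 99.8 CPM with vehicle in recipient NK cells, and 153 CPM with RvD1 and 81.5 CPM with vehicle in donor NK cells. In T cells Cirbp had log2 ratios of 0.74 in recipient and 0.90 in donor cells. T cells as a whole had counts of a like size, with 4 genes at least 2-fold higher (0.0753%) and 7 lower (0.132%) of 5314 genes measured in both kinds of cell, against 7 higher (0.132%) and 5 lower (0.0941%) in NK cells. At 1.5-fold T cells had 31 higher (0.583%) and 87 lower (1.64%), against 37 higher (0.696%) and 77 lower (1.45%) in NK cells.

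Receptors for resolvins were sparsely measured. Gpr18, which encodes a receptor proposed for resolvin D2, was the sole member of the list above 100 UMIs. Gpr18 had 113 CPM with RvD1 and 96.5 CPM with vehicle in recipient NK cells, and 80.2 CPM with RvD1 and 73.3 CPM with vehicle in donor NK cells. Its log2 ratios of 0.23 (-0.06 to 0.52) and 0.13 (-0.15 to 0.40) include 0. Fpr2, which encodes a known receptor of RvD1, held 1 to 8 UMIs in the NK cells of a library, or 0.469 to 1.92 CPM.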

How the data were processed

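Leukocyte RNA was sequenced from 4 libraries made with the 10x 3′ kit, version 3, per the labels' protocols. The authors deposited raw UMI counts per gene and barcode, made with Cell Ranger 7.0.1 (RvD1 libraries) or 6.1.1 (vehicle libraries), per the file headers. The barcode and feature lists were deposited with them. The submitters' processing notes name mm10 and Seurat 4.0.0. Intron counting and doublet removal before deposit are not given in the sources used here.

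Kept cells had 200 genes or more and no more than 10% of UMIs from mitochondrial genes, which left 7623 of 7836 barcodes (RvD1 recipient), 5092 of 5195 (RvD1 donor), 5918 of 5987 (vehicle recipient) and 5658 of 5743 (vehicle donor). Library totals lay between 42199775 and 61294707 UMIs. Doublets were marked with Scrublet in scanpy 1.11.5 and not removed. UMIs were summed per library over NK, T and B cells and scaled to 1000000 UMIs (CPM). B cells had at least 2 UMIs of Cd79a and 0 UMIs of Cd3e, Cd3d, Cd3g, Ncr1 and Klrb1c. They also met the limits of the NK rule for S100a8 and S100a9 and for Ccr2, Ly6c2 and Lyz2. Levels have exact Poisson intervals, ratios and shares exact binomial intervals, and differences of shares Newcombe intervals from statsmodels 0.14.6. Python 3.11.15, numpy 2.4.6, scipy 1.17.1, pandas 2.3.3 and matplotlib 3.10.9 were used. The ratio script was tested on simulated data. With 1 library per group there is no test. The files' counts are used without replicates, so a gene was called only when it passed the fold in both contrasts of a comparison. Shares of cells with a UMI were compared after thinning each cell to 2000 UMIs, which left out 11 RvD1 recipient, 4 RvD1 donor, 1 vehicle recipient and 0 vehicle donor NK cells with fewer.

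Named genes were the 5 leading markers, the 10 highest and 10 lowest by the smaller ratio of the contrasts, and up to 6 members of each list, leaving out mitochondrial, ribosomal, haemoglobin, sex-linked, antigen receptor and unnamed genes. The NK rule, the 36 gene lists and the comparisons were chosen with earlier results of these data known. Gene positions and intron lengths are from the GENCODE annotation of GRCm38, which held 32235 of the 32285 genes.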

Additional observations from a re-analysis of the deposited data

Results flagged for a closer look

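The NK share of all cells differed between RvD1 and vehicle in opposite directions in the 2 origins, by 0.996 percentage points in recipient cells and by -3.14 points in donor cells. The difference between these effects was not tested, because each group is 1 library. As a share of NK plus T cells, RvD1 minus vehicle was -5.84 points in recipient and -6.02 points in donor cells. At 2000 UMIs per cell it was 0.84 points of all cells in recipient and -0.73 points in donor cells.

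Klrg1 was among the late maturation genes of the Itgam-only NK cells. Its log2 RvD1/vehicle ratio was -0.66 in recipient and 0.62 in donor NK cells, beyond counting error in opposite directions, and the difference was not tested.

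Cx3cr1, another of these genes, had a log2 recipient/donor ratio of -0.73 with RvD1 and 0.96 with vehicle, and Unc13d, which encodes the granule priming factor Munc13-4, had 0.80 with RvD1 and -0.87 with vehicle. Both differences were not tested. Unc13d had 31.0 CPM in RvD1 recipient, 17.8 CPM in RvD1 donor, 13.9 CPM in vehicle recipient and 25.5 CPM in vehicle donor NK cells.

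Hist1h1b, a linker histone gene, went in opposite directions in both comparisons. Its log2 RvD1/vehicle ratio was -1.43 in recipient and 1.87 in donor NK cells, and its recipient/donor ratio was -1.64 with RvD1 and 1.66 with vehicle. These differences were not tested, and 1 cell held 65.02% of the Hist1h1b UMIs of the RvD1 donor NK cells.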

How the results depend on the processing

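No paired analysis was possible because each group holds 1 library, and no replicate could be left out. Thinning, the gate and the base of a share moved the NK shares most. Requiring 1 UMI of the NK genes gave shares of 6.30% (RvD1 recipient), 7.72% (RvD1 donor) and 12.2% (vehicle donor), with differences of -4.44 points (RvD1 minus vehicle, donor) and -7.11 points (recipient minus donor, vehicle). Requiring 3 UMIs gave 4.67%, 6.05%, 3.95% (vehicle recipient) and 8.27%, a recipient minus donor difference of -4.32 points with vehicle, and 3 genes lower with RvD1. With Cd3g and Trac also at 0 the vehicle donor share was 9.23%. At 2000 UMIs per cell the shares were 3.602%, 4.47%, 2.76% and 5.20%, and the differences -0.73 points (RvD1 minus vehicle, donor) and -2.43 points (recipient minus donor, vehicle). There 4 genes were higher and 1 lower with RvD1, and 91 were higher and 67 lower in NK than in T cells. Of NK plus T cells, chosen as a base after the data were seen, RvD1 minus vehicle was -5.84 points in recipient cells, a change of sign, and -6.02 in donor cells, and recipient minus donor was -11.6 with RvD1 and -11.8 with vehicle. Of NK, T and B cells the recipient difference was -0.77 points, a change of sign, and recipient minus donor was -11.4 and -14.4.

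Counts of genes past 2-fold depended on the minimum. The number of genes measured at each other minimum is not given, so these counts cannot be read as shares. With 1 UMI in each library, a 2-fold difference can rest on a few UMIs. For RvD1/vehicle they were 14 higher and 13 lower at 50 UMIs, 2 lower at 200 UMIs, 112 higher and 204 lower at 1 UMI in each library, and 38 and 77 at 1.5-fold. Centring on the median gene left 3 lower, and leaving out cycling NK cells, an alternative added after seeing the data, gave 11 higher. For recipient/donor they were 1 lower at 50 UMIs, 127 higher and 106 lower at 1 UMI in each library, and 5 higher and 7 lower at 1.5-fold. For NK/T they were 239 higher and 210 lower at 200 UMIs, 773 higher at 1 UMI, and 778 and 550 at 1.5-fold. Of 800 recomputed ratios of named genes 795 kept their sign and 167 left their counting interval. The 5 that changed sign were Clybl at -0.037 (RvD1/vehicle, recipient), Aspscr1 at -0.17 and Acyp2 at 0.26 (recipient/donor, RvD1) and Chn2 at 0.12 (recipient/donor, vehicle) at 2000 UMIs, and Hist1h2ap at -0.36 (recipient/donor, vehicle) without cycling cells. The cause was not tested. Of 994 list medians 114 moved by more than 0.1.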

Other observations

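Few NK cells were cycling. Cells with at least 3 UMIs of 11 cycle genes at 2000 UMIs per cell were 2 of 414 in the RvD1 recipient library (0.483%), 1 of 351 in the RvD1 donor library (0.285%), 3 of 270 in the vehicle recipient library (1.11%) and 1 of 572 in the vehicle donor library (0.175%). At full depth they numbered 2, 3, 4 and 4 in that order, and they held 53.6% to 86.9% of the cycle gene UMIs of a library's NK cells. Mki67 had 5.64 CPM in RvD1 recipient, 7.03 CPM in RvD1 donor, 25.7 CPM in vehicle recipient and 5.53 CPM in vehicle donor NK cells.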
